A study of Mus musculus with 15 samples.

Results

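Glycolysis splits glucose into pyruvate, and lactate dehydrogenase turns pyruvate into lactate, which is then exported. The 10 genes described here follow that route: Slc2a1 (the glucose transporter GLUT1), Hk2 (hexokinase 2), Pfkl and Pfkp (the liver and platelet isoforms of phosphofructokinase), Aldoa (aldolase A), Pgk1 (phosphoglycerate kinase 1), Eno1 (enolase 1), Pkm (pyruvate kinase M), Ldha (lactate dehydrogenase A) and Slc16a3 (the lactate exporter MCT4). They were taken by symbol from a table of 55486 genes, and all 10 passed the filter on low counts, as did 14843 genes in all. One further entry of the table, ENSMUSG00000114515, also carries the symbol Aldoa. It held 25 counts over all libraries and was not tested.

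The cells came from brain tumors of mice of the genotype Ink4a/ArfKO, PDGFB. In this model PDGFB is forced on in progenitors that express Nestin, on a background lacking Ink4a/Arf, so all groups share both alterations. Macrophages were purified by flow cytometry and divided by origin and by lipid load. The 4 groups are lipid-laden monocyte-derived macrophages (MDM, 3 libraries), non-lipid-laden MDM (4 libraries), lipid-laden microglia (4 libraries) and non-lipid-laden microglia (4 libraries). MDM enter the tumor from the blood, while microglia are the resident macrophages of the brain. Each library carries 1 of the numbers 221, 224, 431 and 718. No library of lipid-laden MDM carries 431. The labels say neither what the number stands for nor how lipid load was gated, nor the age of the mice, and nothing says that libraries of a group came from separate animals. The p-values therefore measure the spread between these libraries.

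Resting macrophages draw much of their energy from mitochondrial oxidation. Inflammatory activation, low oxygen and growth signals are each known to raise transcription of glycolytic genes in macrophages, and hypoxia-inducible factor 1 binds the promoters of most of the genes named above. GLUT1, hexokinase, phosphofructokinase and pyruvate kinase catalyse the steps that govern flux, whereas aldolase, phosphoglycerate kinase and enolase work near equilibrium and are made in large excess.

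Total counts lay between 7798952 and 11419338 per library, and each of the 10 genes had at least 215 counts in every library, so counting error was small against the spread between libraries. The summed level of 8 microglia markers was 6160 to 8846 CPM (counts scaled to a common library size) in lipid-laden MDM, against 2045 to 3368 CPM in non-lipid-laden MDM, 5712 to 14495 CPM in lipid-laden microglia and 8558 to 13012 CPM in non-lipid-laden microglia. That of 8 MDM markers was 5371 to 6467 CPM in lipid-laden MDM and 6179 to 6620 CPM in non-lipid-laden MDM, against 1647 to 2430 CPM in lipid-laden microglia and 1164 to 2009.6 CPM in non-lipid-laden microglia. Of the 8 microglia markers 7 were called higher in lipid-laden than in non-lipid-laden MDM, with a median log2 fold change of 1.66. Of the 8 MDM markers 4 were called lower and 0 higher, with a median log2 fold change of -1.03, which the sums do not show. In bulk libraries fewer cells of a type and less RNA per cell cannot be told apart.

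The promoters of 4 of the genes are shown as examples, and the data below do not set all of them apart from the rest. Ldha and Pgk1 rose in lipid-laden microglia in the fit with a block, as did Aldoa, Eno1 and Pkm. Slc2a1 fell in lipid-laden MDM relative to lipid-laden microglia, as did Aldoa, Pgk1 and Pkm. Pfkp fell in lipid-laden relative to non-lipid-laden MDM. Each line gives the 250 bases upstream of a RefSeq transcription start (build GRCm38.p6), 5′ to 3′ on the strand of the gene. Capitals mark ACGTG, the core that hypoxia-inducible factors recognise, and GCGTG, its other common form, on either strand, so that they also appear as CACGT and CACGC. Where the palindrome CACGTG occurs it holds ACGTG on both strands.
Ldha promoter, chr7:46845554-46845803, plus strand: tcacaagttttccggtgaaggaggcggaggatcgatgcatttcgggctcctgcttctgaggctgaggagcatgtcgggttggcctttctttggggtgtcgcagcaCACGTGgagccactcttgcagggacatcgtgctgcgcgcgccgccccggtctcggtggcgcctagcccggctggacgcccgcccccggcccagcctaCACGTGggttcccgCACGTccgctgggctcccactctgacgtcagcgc
Pgk1 promoter, chrX:106186850-106187099, plus strand: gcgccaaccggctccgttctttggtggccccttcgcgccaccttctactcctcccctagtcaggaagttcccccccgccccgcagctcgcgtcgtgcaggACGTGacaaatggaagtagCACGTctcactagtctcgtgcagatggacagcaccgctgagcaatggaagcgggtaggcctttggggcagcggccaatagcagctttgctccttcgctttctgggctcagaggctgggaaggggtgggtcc
Slc2a1 promoter, chr4:119108495-119108744, plus strand: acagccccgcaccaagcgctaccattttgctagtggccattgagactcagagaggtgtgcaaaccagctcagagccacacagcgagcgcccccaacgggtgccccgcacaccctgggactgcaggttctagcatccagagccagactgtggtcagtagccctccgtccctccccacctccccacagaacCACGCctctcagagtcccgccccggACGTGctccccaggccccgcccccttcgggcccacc
Pfkp promoter, chr13:6648772-6649021, minus strand: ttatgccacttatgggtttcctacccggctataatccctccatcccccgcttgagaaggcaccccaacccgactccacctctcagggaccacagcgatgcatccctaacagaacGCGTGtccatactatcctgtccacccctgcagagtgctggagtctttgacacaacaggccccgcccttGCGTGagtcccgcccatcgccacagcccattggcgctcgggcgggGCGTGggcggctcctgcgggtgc

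Windows of 300 bases were read (the 250 upstream bases and the first 50 of the transcript). ACGTG occurred on either strand in 8 of the 16 windows RefSeq lists for the 10 genes, against 19.6% of the 32851 windows of all genes. Either form occurred in 14 of the 16 windows, against 43.8% of all windows. By gene, 7 of the 10 had ACGTG in at least 1 window and all 10 had either form, with no share by gene taken over all genes. For Aldoa and for Eno1, 2 of the windows overlap and hold the same sites. CACGTG, found in 7.15% of all windows, occurred 2 times in the Ldha window shown. The Pfkp window held GCGTG 4 times, 1 of them past the start, and no ACGTG. Among windows not shown, those of Hk2 and Slc16a3 and some of Aldoa and Pkm held ACGTG. Those of Pfkl and Eno1 and the other Ldha window held GCGTG but no ACGTG. For Aldoa and for Pkm, 1 window held neither form. The member windows were 52.7% to 73.3% G and C, against a median of 52.7% over all windows, and a motif that holds CG is found more often in such sequence. A match is a description of the letters and shows no binding.

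Per kilobase of transcript, 4 genes stood above the rest in each group: Aldoa, Eno1, Ldha and Pkm. In lipid-laden microglia their levels were 1568 ± 248, 1376 ± 189, 1157 ± 163 and 1141 ± 177 CPM per kb (SD, n = 4), and neighbours in this order overlapped between libraries. Pgk1 followed at 315 ± 56.3 CPM per kb in lipid-laden microglia, below Pkm without overlap. Slc2a1 and Pfkl came next at 195 ± 68.3 and 159 ± 30.1 CPM per kb, and Hk2, Slc16a3 and Pfkp lay lowest at 53.2 ± 7.37, 51.9 ± 16.9 and 33.7 ± 23.0 CPM per kb. The same 4 genes led and Pgk1 came next in the other groups. Pfkp ranked above Pfkl and Hk2 in non-lipid-laden MDM, at 114 ± 20.6 CPM per kb (SD, n = 4). Together the 10 genes took 0.804% ± 0.0896 of all counts in lipid-laden MDM (SD, n = 3), 0.802% ± 0.0721 in non-lipid-laden MDM, 1.28% ± 0.211 in lipid-laden microglia and 0.855% ± 0.105 in non-lipid-laden microglia (SD, n = 4 each).

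**Figure D1:**
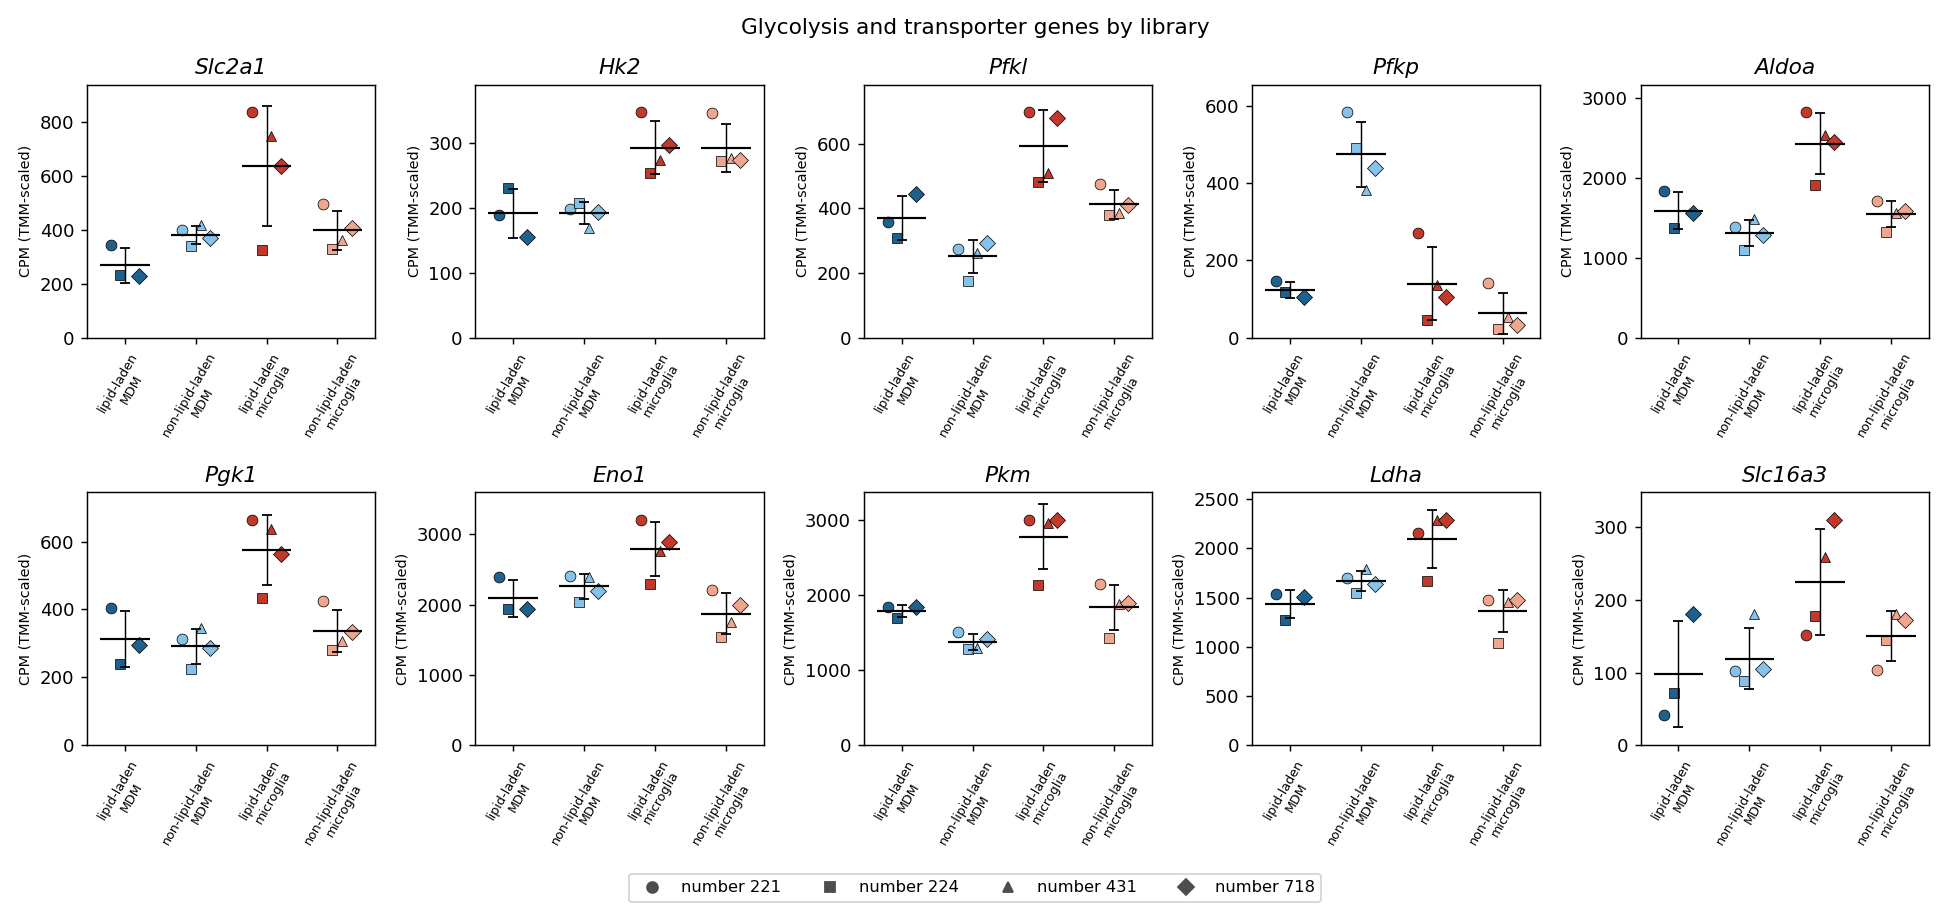
Level of each of the 10 genes (CPM scaled by TMM factors, linear axis from 0) in every library, with the mean and SD of each group as lines and the shape of the point giving the number in the library's title. Lipid-laden microglia have the highest group mean for 8 of the genes, Hk2 is level in the 2 microglia groups (means of 293 CPM), and Pfkp is highest in non-lipid-laden MDM (382 to 583 CPM).

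Lipid-laden microglia were first compared with non-lipid-laden microglia. The enzymes of the lower pathway, from aldolase to lactate dehydrogenase, stood higher by a similar factor in every number-matched pair. With the number as a block in the fit, Aldoa, Pgk1, Eno1, Pkm and Ldha rose in lipid-laden microglia, at log2 fold changes between 0.58 and 0.76. Without the block no gene of the 14843 passed (0% called), and none of the 10 did.

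Ldha, which makes lactate from pyruvate, was at 2154, 1668, 2287 and 2294 CPM in lipid-laden microglia (numbers 221, 224, 431 and 718), against 1473, 1039.7, 1458 and 1481 CPM in non-lipid-laden microglia. Every lipid-laden library exceeded every non-lipid-laden one, and the 224 libraries were lowest in both groups. The log2 fold change was 0.62 (SE 0.14, edgeR adjusted p = 0.113), and 0.63 (SE 0.08, edgeR adjusted p = 0.00533) with the block. Aldoa, which cleaves fructose 1,6-bisphosphate, was at 2825, 1907, 2537 and 2449.8 CPM in lipid-laden microglia, against 1707, 1327, 1567 and 1590.0 CPM in non-lipid-laden microglia. Its groups did not overlap either, and its log2 fold change was 0.65 (SE 0.14, edgeR adjusted p = 0.113), with edgeR adjusted p = 0.00533 under the block.

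Pgk1, the first enzyme of the pathway that makes ATP, was at 665, 434, 636 and 563 CPM in lipid-laden microglia, against 424, 279.8, 308 and 335 CPM in non-lipid-laden microglia (log2 fold change 0.77, SE 0.19, edgeR adjusted p = 0.190; with the block 0.76, SE 0.10, adjusted p = 0.00627). Eno1, which makes phosphoenolpyruvate, was at 3211, 2289, 2766 and 2889 CPM in lipid-laden microglia, against 2209, 1539.7, 1754 and 1992 CPM in non-lipid-laden microglia (log2 fold change 0.57, SE 0.13, edgeR adjusted p = 0.152; with the block adjusted p = 0.00776). For both genes each lipid-laden library exceeded each non-lipid-laden one. Pkm, which makes pyruvate, was at 3004, 2127, 2962 and 3002 CPM in lipid-laden microglia, against 2146, 1422, 1882 and 1893 CPM in non-lipid-laden microglia (log2 fold change 0.60, SE 0.14, edgeR adjusted p = 0.146; with the block adjusted p = 0.0117). Here the groups overlapped through the lipid-laden 224 library alone, which lay below the non-lipid-laden 221 library but above its own pair.

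Slc2a1 and Hk2, at the start of the route, were less even. Slc2a1, the entry point for glucose, was at 835, 325, 745 and 636 CPM in lipid-laden microglia, against 495, 328, 363 and 404 CPM in non-lipid-laden microglia. It was higher in 3 of 4 pairs, with the 224 pair level (log2 ratio -0.01). Its log2 fold change was 0.68 (SE 0.23, edgeR adjusted p = 0.364; with the block adjusted p = 0.120). Hk2, which phosphorylates glucose on entry, was at 348, 254, 274 and 297 CPM in lipid-laden microglia, against 347, 273, 277 and 274 CPM in non-lipid-laden microglia. The pairs were nearly level and 2 of 4 were higher, with a log2 fold change of 0.00 (SE 0.15).

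Both phosphofructokinase genes, whose product catalyses the committed step, were higher in 4 of 4 pairs without passing the test. Pfkl was at 698, 482, 510.1 and 680.2 CPM in lipid-laden microglia, against 475, 378, 386 and 411 CPM in non-lipid-laden microglia, with no overlap (log2 fold change 0.52, SE 0.18, edgeR adjusted p = 0.356; with the block adjusted p = 0.0768). Pfkp was at 270.2, 44.8, 137 and 106 CPM in lipid-laden microglia, against 141, 23.1, 53.9 and 32.9 CPM in non-lipid-laden microglia (log2 fold change 1.15, SE 0.51, edgeR adjusted p = 0.507). Its numbers differed more than its groups did, with 221 highest and 224 lowest on both sides. Slc16a3 was at 152, 178, 259 and 310.4 CPM in lipid-laden microglia, against 104, 145, 181 and 172 CPM in non-lipid-laden microglia, higher in 4 of 4 pairs (log2 fold change 0.58, SE 0.37, edgeR adjusted p = 0.685).

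Of the 10 genes, 5 passed in the higher direction with the block, where 0.404% of the genes tested did so. At an unadjusted p under 0.05 without the block, 8 of the 10 were higher (all but Hk2 and Slc16a3), against 4.24% of all genes. DESeq2 called 164 genes, among them Aldoa, Pgk1, Eno1, Pkm and Ldha, and limma-voom called 0. Groups did not overlap for 5 of the 10 (Pfkl, Aldoa, Pgk1, Eno1 and Ldha), against 2.65% of all genes in that direction, and 8 of the 10 were higher in all 4 pairs, against 10.2% of all genes. All 10 log2 fold changes were positive, with a median of 0.61, against a median of -0.02 over all genes.

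The calls depended on which libraries entered. With the block, 6 of the 10 passed without the 224 libraries, 3 without 221, 1 (Aldoa) without 431 and 0 without 718. Without the block, leaving out the lipid-laden 224 library alone gave 5 calls (Slc2a1, Aldoa, Eno1, Pkm and Ldha, edgeR adjusted p between 0.0208 and 0.0417). Over all genes, leaving out 1 library in turn gave 0 to 64 calls. Counts over all genes for the fits with the block and without a number are not given here. The summed level of 10 immediate early genes, which respond to handling, was 6707 to 8937 CPM in lipid-laden microglia, against 9587 to 13127 CPM in non-lipid-laden microglia. That of 10 proliferation genes was 961 to 1427 CPM in lipid-laden microglia, against 595 to 1109.7 CPM in non-lipid-laden microglia, and that of 6 astrocyte markers was 77.6 to 105 CPM in lipid-laden microglia, against 109 to 162 CPM in non-lipid-laden microglia. The 8 dendritic cell markers summed to 6.33 to 18.7 CPM in lipid-laden microglia, with 2 of the 8 at 0 in every library, against 21.7 to 34.9 CPM in non-lipid-laden microglia. All 8 log2 fold changes were negative (median -1.94), and 1 was called with the block. The part of these lists in the result was not tested.

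**Figure D2:**
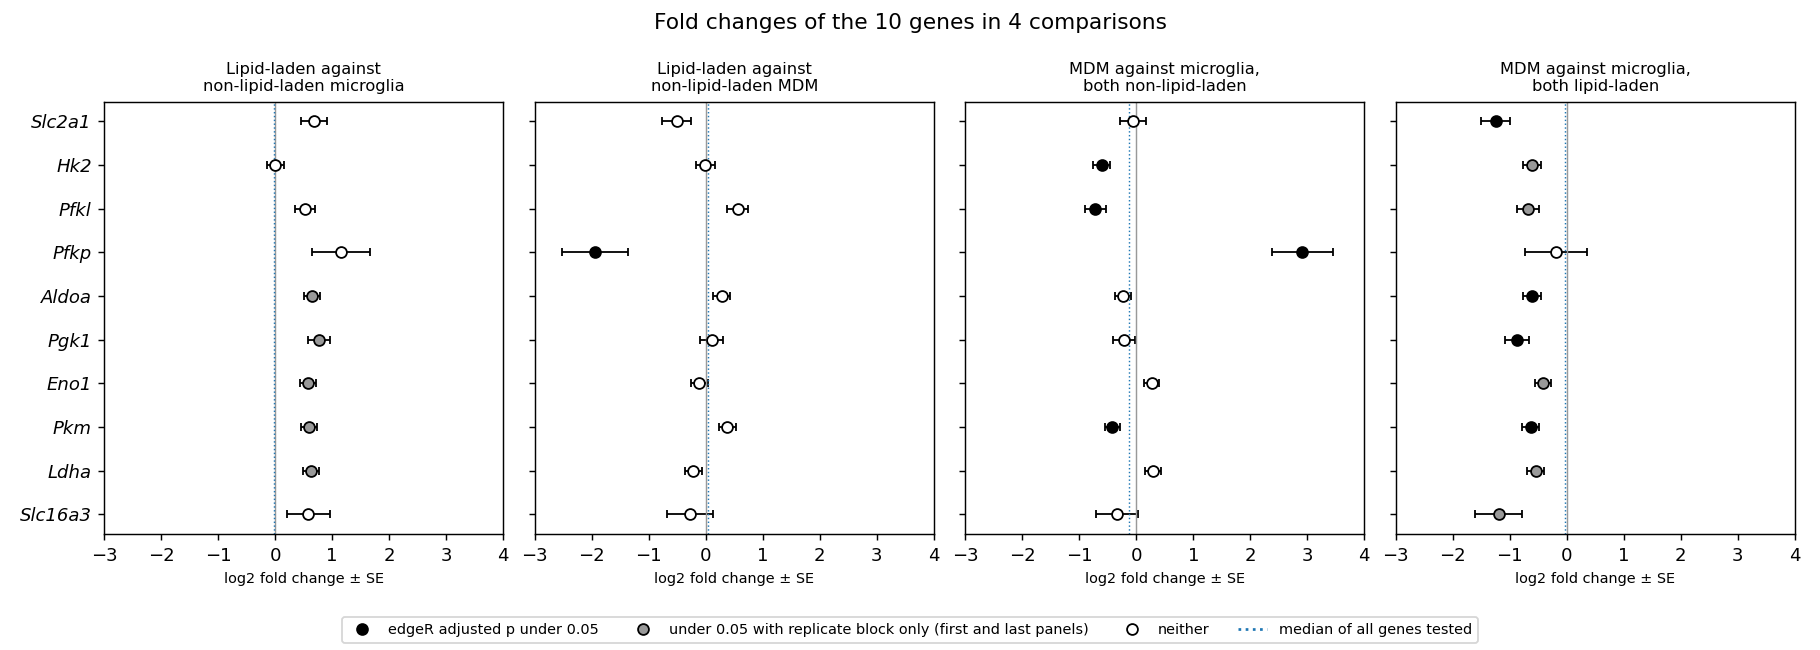
Log2 fold change (points) and its SE (bars) of the 10 genes in 4 comparisons, with the dotted line at the median of all 14843 genes tested. Filled points passed edgeR's adjusted p of 0.05 and grey points passed with the number as a block only, shown for lipid-laden against non-lipid-laden microglia (5 genes) and lipid-laden MDM against lipid-laden microglia (5 genes beyond the 4 filled).

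Lipid-laden MDM were compared with non-lipid-laden MDM in the same way. Pfkp fell by 1.95 on the log2 scale in lipid-laden MDM, and it was the only 1 of the 10 to pass. Otherwise the genes moved in both directions: 4 log2 fold changes were positive and 6 negative, with a median of -0.06 against 0.04 over all genes.

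Pfkp was at 146, 117 and 106 CPM in lipid-laden MDM (numbers 221, 224 and 718), against 583, 489, 382 and 439.6 CPM in non-lipid-laden MDM (221, 224, 431 and 718). The groups were far apart, and the log2 ratio was -2.003, -2.06 and -2.05 in the 3 pairs. The log2 fold change was -1.95 (SE 0.57, edgeR adjusted p = 0.0475). It was 1 of 10 genes called in the lower direction, against 2.96% of all genes, and 0 of 10 were called in the higher direction, against 5.21%. The call stood near the threshold: it was lost without any 1 of the 7 MDM libraries, or without the 431 or 718 library of either microglia group, at adjusted p between 0.0516 and 0.158, while the log2 fold change stayed between -2.09 and -1.83.

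Pfkl was at 357, 309 and 443 CPM in lipid-laden MDM, against 275, 176, 262 and 292 CPM in non-lipid-laden MDM. Pkm was at 1834, 1688 and 1839 CPM in lipid-laden MDM, against 1501, 1282, 1289 and 1416 CPM in non-lipid-laden MDM. These were the 2 genes whose lipid-laden libraries all lay above the others (11.1% of all genes did so), with log2 fold changes of 0.56 (SE 0.19, edgeR adjusted p = 0.0844) and 0.38 (SE 0.15, edgeR adjusted p = 0.129). Aldoa was at 1836, 1377 and 1564 CPM in lipid-laden MDM, against 1383, 1101, 1482 and 1288 CPM in non-lipid-laden MDM (log2 fold change 0.28, SE 0.15, edgeR adjusted p = 0.295), higher in 3 of 3 pairs.

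Ldha was at 1537, 1269 and 1503 CPM in lipid-laden MDM, against 1704, 1544, 1793 and 1639.8 CPM in non-lipid-laden MDM. With Pfkp it made the 2 genes whose lipid-laden libraries all lay lower (10.7% of all genes), but its log2 fold change was -0.22 (SE 0.15, edgeR adjusted p = 0.422) and did not pass. Slc2a1 was at 341, 232 and 229.7 CPM in lipid-laden MDM, against 399, 341, 416 and 368 CPM in non-lipid-laden MDM (log2 fold change -0.51, SE 0.25, edgeR adjusted p = 0.247), lower in 3 of 3 pairs. Slc16a3 had no common direction, with 41.9, 71.7 and 180.4 CPM in lipid-laden MDM, against 102, 88.1, 181 and 106 CPM in non-lipid-laden MDM (log2 fold change -0.28, SE 0.40).

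Hk2, Pgk1 and Eno1 had log2 fold changes smaller than their SE, at -0.01 (SE 0.16), 0.10 (SE 0.21) and -0.11 (SE 0.14). Eno1 was at 2393, 1935 and 1944 CPM in lipid-laden MDM, against 2406, 2042, 2389 and 2200.0 CPM in non-lipid-laden MDM. Pgk1 was at 404, 239 and 296 CPM in lipid-laden MDM, against 313, 224, 344 and 286 CPM in non-lipid-laden MDM. Hk2 was at 189, 231 and 155 CPM in lipid-laden MDM, against 199, 208, 169 and 194 CPM in non-lipid-laden MDM. The groups overlapped for each of the 3 genes.

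The 2 MDM groups also differed in markers of other cells. The summed level of 8 dendritic cell markers was 154 to 185 CPM in lipid-laden MDM, against 1048 to 2084 CPM in non-lipid-laden MDM, and none of the 8 was at 0 in all libraries of either group. The summed level of the 10 proliferation genes was 503 to 1005 CPM in lipid-laden MDM, against 125 to 295 CPM in non-lipid-laden MDM. That of 10 glioma and progenitor markers was 71.4 to 146 CPM in lipid-laden MDM, against 12.1 to 19.4 CPM in non-lipid-laden MDM, with 2 of the 10 at 0 in every non-lipid-laden MDM library. The microglia markers, of which 7 of 8 were called higher, summed to 6160 to 8846 CPM in lipid-laden MDM, against 2045 to 3368 CPM in non-lipid-laden MDM. The 6 astrocyte markers summed to 35.9 to 92.9 CPM in lipid-laden MDM, against 15.6 to 31.7 CPM in non-lipid-laden MDM, and 6 neutrophil markers to 152 to 626 CPM in lipid-laden MDM, against 99.5 to 155 CPM in non-lipid-laden MDM. In each of these lists 2 of 6 were called higher, and 1 of 6 was at 0 in every non-lipid-laden MDM library. The part of these markers in the Pfkp result and in the other values of this comparison was not tested.

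Origin was compared first among cells without lipid load. Pfkp rose in MDM and Hk2, Pfkl and Pkm fell relative to microglia. Pfkp was at 583, 489, 382 and 439.6 CPM in non-lipid-laden MDM, against 141, 23.1, 53.9 and 32.9 CPM in non-lipid-laden microglia, and its log2 fold change was 2.91 (SE 0.54, edgeR adjusted p = 0.00101). The groups were far apart, and leaving out any 1 library kept the call (adjusted p at most 0.00488).

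Hk2 was at 199, 208, 169 and 194 CPM in MDM, against 347, 273, 277 and 274 CPM in microglia, and its log2 fold change was -0.61 (SE 0.15, edgeR adjusted p = 0.00746). Pfkl was at 275, 176, 262 and 292 CPM in MDM, against 475, 378, 386 and 411 CPM in microglia, and its log2 fold change was -0.72 (SE 0.18, edgeR adjusted p = 0.00831). Both calls were kept without any 1 library, and neither pair of groups overlapped. Pkm was at 1501, 1282, 1289 and 1416 CPM in MDM, against 2146, 1422, 1882 and 1893 CPM in microglia, and its log2 fold change was -0.42 (SE 0.14, edgeR adjusted p = 0.0376). That call was less firm: it was lost without 10 of the 15 libraries, the microglia libraries 221, 431 and 718, the MDM libraries 224, 431 and 718, the 3 lipid-laden MDM libraries and the lipid-laden microglia library 718, at adjusted p of up to 0.123.

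The other 6 genes did not pass. The log2 fold change of Ldha was 0.29 (SE 0.14, edgeR adjusted p = 0.135), with MDM libraries at 1544 to 1793 CPM, above all microglia libraries at 1039.7 to 1481 CPM. Eno1 (0.27, SE 0.13), Slc2a1 (-0.06, SE 0.23), Aldoa (-0.24, SE 0.14), Pgk1 (-0.21, SE 0.19) and Slc16a3 (-0.34, SE 0.37) overlapped between the groups. In all, 1 of the 10 was called higher, where 10.7% of all genes were, and 3 were called lower, where 12.5% were. Groups did not overlap for 2 in the higher direction (Pfkp and Ldha; 13.8% of all genes) and 2 in the lower (Hk2 and Pfkl; 14.8%). The median log2 fold change was -0.22, against -0.12 over all genes. The dendritic cell markers summed to 1048 to 2084 CPM in MDM, against 21.7 to 34.9 CPM in microglia, and 8 T and NK cell markers to 26.3 to 148 CPM in MDM, against 0 to 9.03 CPM in microglia, with 3 of the 8 at 0 in every microglia library. The proliferation genes, 10 of 10 called lower, summed to 125 to 295 CPM in MDM, against 595 to 1109.7 CPM in microglia, and the glioma and progenitor markers, 9 of 10 called lower, to 12.1 to 19.4 CPM in MDM, against 106 to 409.8 CPM in microglia. The part of these lists was not tested.

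Among lipid-laden cells all 10 genes had a negative log2 fold change between origins, with a median of -0.62 against -0.03 over all genes. Without lipid load 7 of the 10 were negative, with a median of -0.22. Slc2a1, Aldoa, Pgk1 and Pkm fell in lipid-laden MDM relative to lipid-laden microglia. These were 4 of 10 genes, against 0.579% of all genes called lower. With the number as a block, 9 of the 10 passed, all but Pfkp, against 0.990% of all genes.

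Slc2a1 was at 341, 232 and 229.7 CPM in lipid-laden MDM, against 835, 325, 745 and 636 CPM in lipid-laden microglia, and its log2 fold change was -1.25 (SE 0.26, edgeR adjusted p = 0.0156). Pgk1 was at 404, 239 and 296 CPM in lipid-laden MDM, against 665, 434, 636 and 563 CPM in lipid-laden microglia, and its log2 fold change was -0.88 (SE 0.21, edgeR adjusted p = 0.0355). The lowest microglia library, 224, overlapped the MDM range for Slc2a1 but not for Pgk1. For Pkm it was -0.63 (SE 0.15, edgeR adjusted p = 0.0327) and for Aldoa -0.61 (SE 0.15, edgeR adjusted p = 0.0437). Groups did not overlap for 6 of the 10 (Hk2, Pfkl, Aldoa, Pgk1, Pkm and Ldha), against 5.17% of all genes.

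With the block, Hk2 (-0.65, SE 0.15, edgeR adjusted p = 0.0259), Pfkl (-0.70, SE 0.13, adjusted p = 0.0102), Eno1 (-0.41, SE 0.09, adjusted p = 0.0255), Ldha (-0.50, SE 0.09, adjusted p = 0.00822) and Slc16a3 (-1.20, SE 0.27, adjusted p = 0.0288) fell as well. Pfkp did not pass, and its pairs disagreed, with log2 ratios of -0.89 in 221, 1.39 in 224 and 0.00 in 718. Its log2 fold change was -0.18 (SE 0.54), and 0.06 with the block. The unblocked count of 4 was 0 without the lipid-laden MDM library 224 and in a fit of these 2 groups alone. It was 1, Slc2a1, without the lipid-laden microglia library 221, 431 or 718. Without the lipid-laden MDM library 718 all 4 calls were lost (edgeR adjusted p between 0.0816 and 0.142). Only Slc16a3 passed there (edgeR adjusted p = 0.0158). The count was 2 without the 718 library of either non-lipid-laden group, and 6 without the lipid-laden microglia library 224. With the block, 1 gene passed without the 718 libraries, Slc16a3. The dendritic cell markers summed to 154 to 185 CPM in lipid-laden MDM, against 6.33 to 18.7 CPM in lipid-laden microglia, with 2 of the 8 at 0 in every lipid-laden microglia library. The T and NK cell markers summed to 29.6 to 81.3 CPM in lipid-laden MDM, against 0 to 3.51 CPM in lipid-laden microglia, with 5 of the 8 at 0 in every library of the microglia, and the glioma and progenitor markers to 71.4 to 146 CPM in lipid-laden MDM, against 162 to 433 CPM in lipid-laden microglia. The part of these lists was not tested.

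Whether lipid load went with a different change in each origin was tested as the difference of the lipid-laden effects, MDM minus microglia. It passed for Ldha (-0.84, SE 0.20, edgeR adjusted p = 0.0359) and Pfkp (-3.10, SE 0.76, edgeR adjusted p = 0.0413), 2 of 10 genes against 0.930% of all genes called lower. For Ldha the log2 fold changes behind it were -0.22 in MDM and 0.62 in microglia, and for Pfkp -1.95 in MDM and 1.15 in microglia. Eno1 (-0.69, SE 0.20, edgeR adjusted p = 0.0812) and Slc2a1 (-1.19, SE 0.34, edgeR adjusted p = 0.0837) did not pass. With the number as a block, Slc2a1 (edgeR adjusted p = 0.0224), Pgk1 (0.0362) and Eno1 (0.00735) passed beside Ldha and Pfkp. In the check of the numbers every microglia pair passed the cutoff of 0.1, and not every MDM pair did. Of the 10 differences 9 were negative, with a median of -0.68 against 0.10 over all genes. The call for Ldha was lost without 10 of the 15 libraries (edgeR adjusted p up to 0.0989) and kept without lipid-laden microglia 224, non-lipid-laden microglia 221 or 431, lipid-laden MDM 221 or non-lipid-laden MDM 224. That for Pfkp was lost without 13 libraries (adjusted p up to 0.120) and kept without lipid-laden microglia 224 or non-lipid-laden microglia 221. In the same test of the difference 6 of the 8 microglia markers were called higher and 3 of the 8 MDM markers lower. The part of these markers was not tested.

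Averaged over both origins, Pkm (0.49, SE 0.10, edgeR adjusted p = 0.0129), Aldoa (0.46, SE 0.10, edgeR adjusted p = 0.0179) and Pfkl (0.54, SE 0.13, edgeR adjusted p = 0.0257) rose with lipid load, 3 of 10 genes against 3.02% of all genes called higher. Pfkl and Aldoa sit next to each other in the pathway, and Pkm ends it. The calls for Pkm and Aldoa were kept without any 1 library, and that for Pfkl was lost without the non-lipid-laden microglia library 431 or the lipid-laden MDM library 718 (adjusted p = 0.0513 and 0.0873).

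The phosphofructokinase genes were set against each other per kilobase, since the enzyme is built from subunits of the L, P and M types. In lipid-laden MDM, Pfkp made up 22.7% ± 4.57 of the summed CPM per kb of Pfkl, Pfkp and Pfkm (SD, n = 3), against 61.9% ± 7.14 in non-lipid-laden MDM (SD, n = 4). In lipid-laden microglia it made up 15.9% ± 7.76, against 10.8% ± 7.08 in non-lipid-laden microglia (SD, n = 4 each). Non-lipid-laden MDM were thus the only group in which the P type led, and Pfkm stayed low throughout (means of 1.54% to 2.80%). With the length of all exons in place of the longest coding transcript, the Pfkp shares were 13.8%, 47.1%, 9.47% and 6.31% in lipid-laden MDM, non-lipid-laden MDM, lipid-laden microglia and non-lipid-laden microglia, so which type leads in non-lipid-laden MDM depends on the length used.

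**Figure D3:**
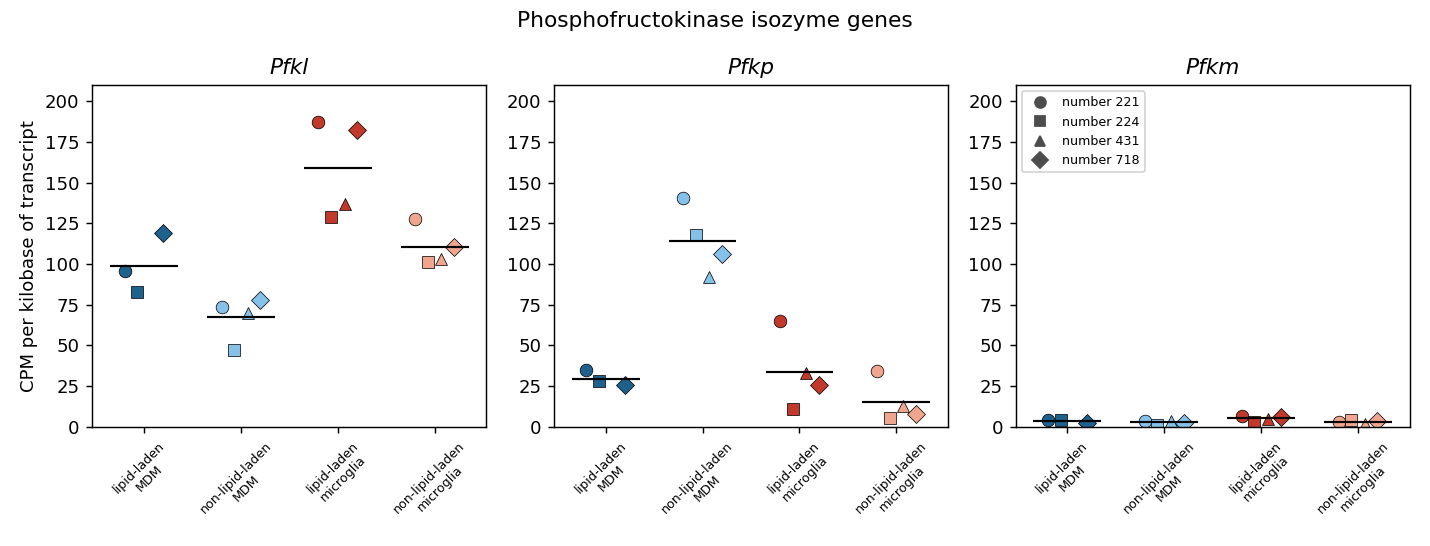
Levels of the 3 phosphofructokinase genes in CPM per kilobase of longest coding transcript (linear axes from 0), with 1 point per library and a line at the mean of each group. Pfkp stands at a mean of 114 CPM per kb in non-lipid-laden MDM and below Pfkl in the other groups.

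Pfkp shares 748 bases of exon with Pitrm1, a gene on the opposite strand, and the strand setting of the counting is not given in the sources used here. Pitrm1 held 26.2% as many counts as Pfkp over all libraries, but the share differed by group. In non-lipid-laden microglia Pitrm1 had 545 to 607 counts per library and Pfkp 215 to 1367. In non-lipid-laden MDM Pitrm1 had 235 to 402 counts and Pfkp 2938 to 5002. What part of the Pfkp counts came from the shared bases was not tested. The log2 fold change of Pitrm1 was -0.83 in non-lipid-laden MDM against non-lipid-laden microglia (SE 0.18, edgeR adjusted p = 0.00316) and 0.53 in lipid-laden against non-lipid-laden MDM (SE 0.19, edgeR adjusted p = 0.0994), of opposite sign to that of Pfkp in both. In lipid-laden MDM against lipid-laden microglia it was -0.20 (SE 0.19, edgeR adjusted p = 0.713), of the same sign as that of Pfkp.

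The other genes of glucose metabolism were read from lists of the same pathway. Of 11 other glycolysis enzymes, 10 had a value above 0 in lipid-laden against non-lipid-laden microglia (median 0.70), 0 passed, and 4 passed with the block in the higher direction. They include Pgam1, phosphoglycerate mutase (0.84, SE 0.20, edgeR adjusted p = 0.168; with the block 0.00533), and Tpi1, triosephosphate isomerase (0.70, SE 0.17, edgeR adjusted p = 0.177; with the block 0.00533). For Hk1, the hexokinase of most tissues, the log2 fold change was 1.32 (SE 0.31, edgeR adjusted p = 0.146). For Bsg, the chaperone basigin that carries MCT4 to the membrane, it was 0.61 (SE 0.16, edgeR adjusted p = 0.193; with the block 0.0209), and Bsg was the only 1 of 8 other carriers and chaperones to pass with the block. Of 9 glycogen genes 8 were positive (median 0.61) and of 7 pentose phosphate genes all 7 (median 0.42), while 13 citric acid cycle genes had a median of 0.15 and 0 passed with or without the block. The 8 other carriers and chaperones were split, with 4 positive and 4 negative (median 0.03). Of the 5 genes tested for fructose bisphosphate control, 2 were positive and 3 negative (median -0.24).

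Of 12 hypoxia targets outside glycolysis, 11 were positive in lipid-laden against non-lipid-laden microglia, with a median of 0.99, 0 passing and 4 passing with the block. The log2 fold change of Ndrg1 was 2.00 (SE 0.37, edgeR adjusted p = 0.0717; with the block 0.0117), and those of the mitophagy receptor genes Bnip3l and Bnip3 were 0.84 (SE 0.16, adjusted p = 0.0717; with the block 0.0188) and 1.22 (SE 0.38, adjusted p = 0.343; with the block 0.0122). The 8 genes for hypoxia-inducible factor subunits and their control had a median log2 fold change of 0.12. For Egln3, an oxygen-sensing hydroxylase that is itself induced by low oxygen, the log2 fold change was 1.26 (SE 0.43, edgeR adjusted p = 0.356; with the block 0.0489).

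In lipid-laden against non-lipid-laden MDM the same lists held genes of both signs (log2 fold changes in parentheses). Of the 8 other carriers and chaperones 7 were positive (median 0.55, against 0.04 over all genes), and of 9 glycogen genes 7 were (median 0.13). Of 11 other glycolysis enzymes 7 were positive (median 0.24), of 12 hypoxia targets 6 and of 7 pentose phosphate genes 2. Among the other glycolysis enzymes, Ldhb, the lactate dehydrogenase subunit that favours pyruvate, rose (1.62, SE 0.19, edgeR adjusted p = 0.000142) and so did Hk3 (0.98, SE 0.29, edgeR adjusted p = 0.0465). Among carriers, the fructose transporter gene Slc2a5 rose (3.35, SE 0.66, edgeR adjusted p = 0.00513), at 106 ± 50.8 CPM in lipid-laden MDM (SD, n = 3) and 10.5 ± 6.63 CPM in non-lipid-laden MDM (SD, n = 4), and Bsg rose (0.63, SE 0.17, edgeR adjusted p = 0.0321). Pdk1, the kinase that holds pyruvate back from mitochondria, rose (0.75, SE 0.20, edgeR adjusted p = 0.0326), and Mdh2 of the citric acid cycle fell (-1.46, SE 0.18, edgeR adjusted p = 0.000174). In the pentose phosphate pathway Pgd rose (0.56, SE 0.12, edgeR adjusted p = 0.0104) and Taldo1 fell (-0.47, SE 0.13, edgeR adjusted p = 0.0326). The hypoxia targets Ndrg1 (-1.84, SE 0.41, edgeR adjusted p = 0.0116) and Ankrd37 (-1.13, SE 0.32, edgeR adjusted p = 0.0415) fell, where both had positive values in microglia. Ldhb, Slc2a5, Pdk1, Mdh2 and Taldo1 had the opposite sign in MDM against microglia without lipid load, as given below. Of the 8 microglia markers 7 were called higher in lipid-laden MDM, and their part in these changes was not tested.

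**Figure D4:**
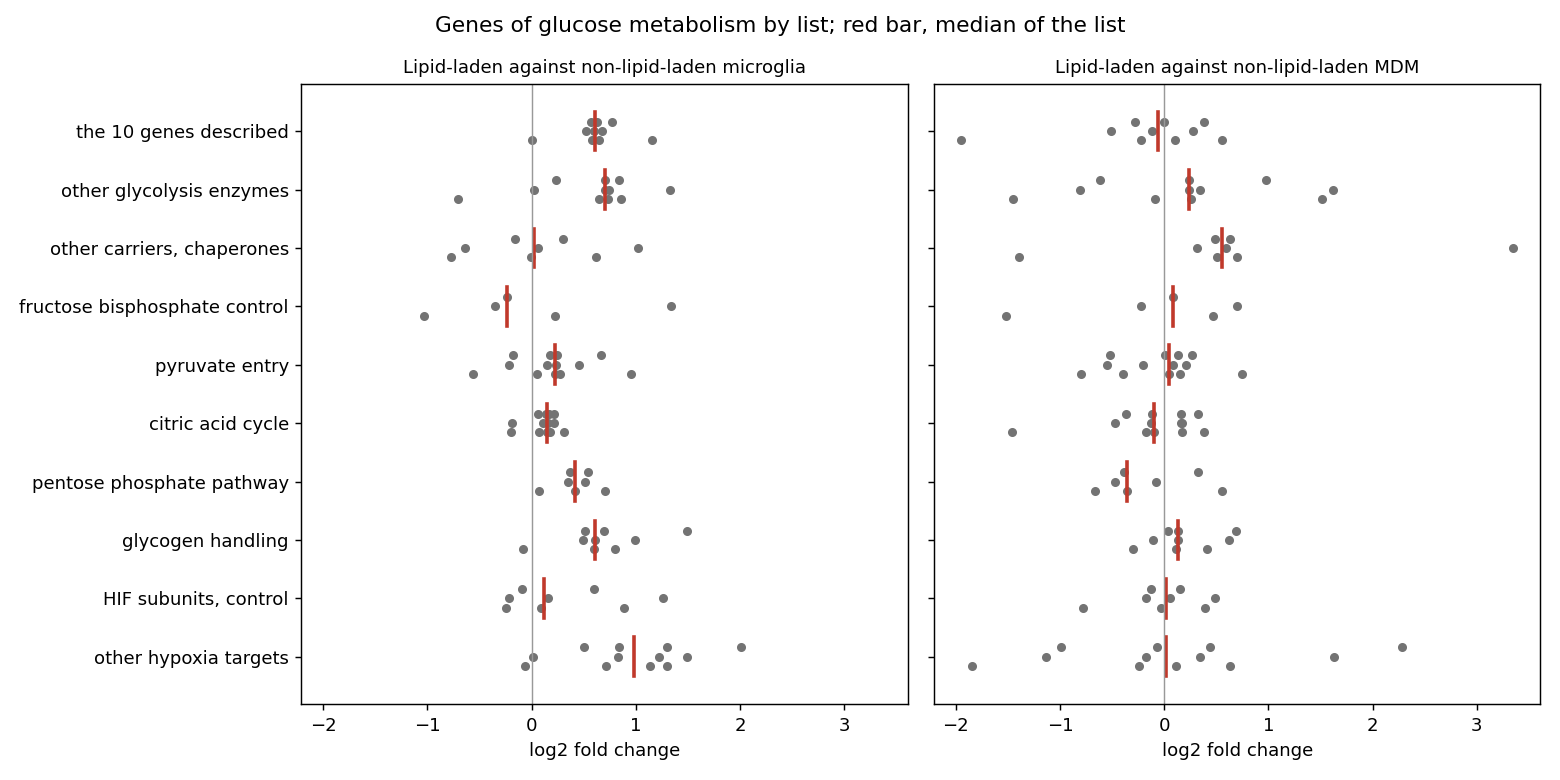
Log2 fold change of each gene tested, by list, in lipid-laden against non-lipid-laden microglia and in lipid-laden against non-lipid-laden MDM, with a red bar at the median of the list. In microglia the medians of the 10 genes (0.61), of the other glycolysis enzymes (0.70) and of the other hypoxia targets (0.99) lie right of 0, and in MDM those medians are -0.06, 0.24 and 0.02. The medians of the other carriers and chaperones are 0.03 in microglia and 0.55 in MDM, and those of fructose bisphosphate control -0.24 and 0.08.

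Between origins without lipid load, Ldhb fell in MDM relative to microglia (log2 fold change -1.92, SE 0.18, edgeR adjusted p = 2.84e-06), as did Pfkfb3, which makes the activator of phosphofructokinase (-1.55, SE 0.20, edgeR adjusted p = 5.55e-05), Pdk1 (-1.38, SE 0.19, edgeR adjusted p = 9.40e-05) and Slc2a5 (-4.92, SE 0.68, edgeR adjusted p = 8.55e-05). Embigin (Emb), a chaperone of lactate carriers, rose (5.42, SE 0.71, edgeR adjusted p = 5.45e-05), as did Mdh2 (1.89, SE 0.16, edgeR adjusted p = 1.28e-06) and Taldo1 (1.02, SE 0.12, edgeR adjusted p = 1.69e-05). Of 13 citric acid cycle genes 4 rose and 0 fell. Among lipid-laden cells Tpi1 fell in MDM relative to microglia (-0.80, SE 0.19, edgeR adjusted p = 0.0314), 1 of 11 other glycolysis enzymes, and 4 of 12 hypoxia targets fell, among them Bnip3l (-0.95, SE 0.17, edgeR adjusted p = 0.00676) and Adm (-2.88, SE 0.58, edgeR adjusted p = 0.0130).

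Across the 15 libraries, the 5 enzymes from aldolase to lactate dehydrogenase varied together. As a description, the Pearson correlation of their log2 CPM lay between 0.64 (Eno1 with Pkm) and 0.97 (Aldoa with Pgk1), and that of their deviations from the group means between 0.69 and 0.95. Libraries share depth, number and sort, so these values describe the libraries and no regulation. The correlation of Pfkp with the other 9 genes lay between -0.44 (Pfkl) and 0.49 (Eno1) for log2 CPM. For deviations from the group means it lay between 0.41 (Pfkl) and 0.82 (Pkm) with 8 of them and was -0.33 with Slc16a3. The library that lay farthest from its group over the 10 genes was lipid-laden microglia 224, at a mean deviation of -0.47 on the log2 scale, followed by non-lipid-laden microglia 224 at -0.30, and both MDM libraries of 224 also lay below their groups. In both microglia groups 224 had the highest summed microglia markers (14495 CPM lipid-laden, 13012 CPM non-lipid-laden). There 221 had the lowest (5712 and 8558 CPM) and the highest sum of the 10 genes. In neither MDM group did 224 have the highest marker sum, and the part of the markers was not tested. Of 8523 genes with a mean log2 CPM of at least 3, the 5 most like the mean profile of the 10 were Grhpr (r = 0.946), Pgam1 (0.941), Tpi1 (0.941), P4hb (0.939) and Fam162a (0.931).

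Near-identical copies can take reads from some of these genes. Eno1 has a retrotransposed copy, Eno1b, that matches it at 99.5% over 1736 of its 2027 bases. Eno1b took 1.27% to 1.39% of the Eno1 and Eno1b counts in the libraries numbered 221 and 1.33% to 1.50% in those numbered 224, but 5.50% to 5.79% in 431 and 5.47% to 6.05% in 718. The share followed the number and not the group, and what sets the numbers apart is not given in the sources used here. Copies of Pgk1, Ldha and Pkm held 0.0630%, 0.0546% and 0.149% as many counts as those genes. Adding the counts of all copies to each gene left the number of the 10 genes called unchanged in each of the 6 comparisons.

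**Figure D5:**
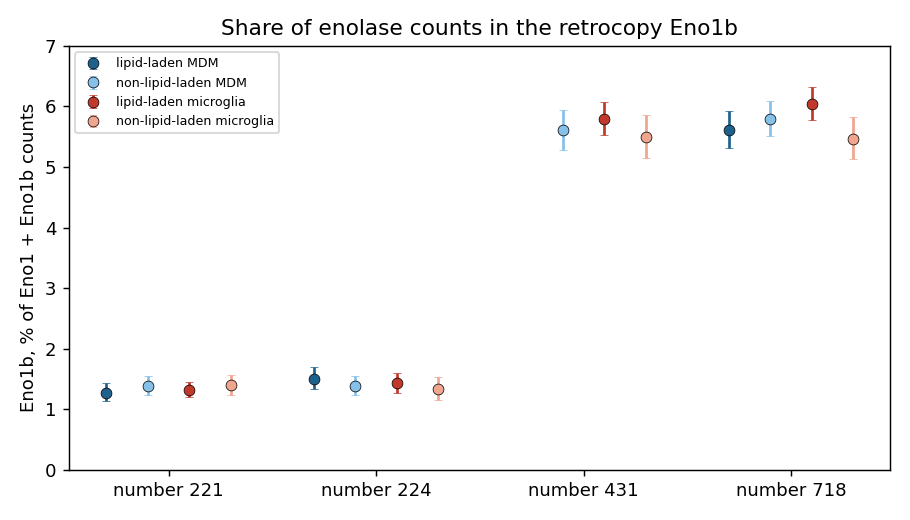
Counts of Eno1b as a percentage of Eno1 and Eno1b counts in each library, by number and group, with exact 95% binomial intervals that cover counting error only. All libraries numbered 221 and 224 lie at or below 1.50% and all numbered 431 and 718 at or above 5.47%, in each group present.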

How the data were processed

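The deposited table holds whole-number read counts per gene, made by the authors; per the submitters' processing notes the genome build was mm10, while the sources used here name neither the aligner nor the counter and its strand setting. Per the labels' protocols, cDNA was primed with oligo-dT, extended by template switching and amplified, so PCR copies may be counted. The 15 libraries were fitted together in edgeR 4.0.16 (R 4.3.3) with TMM factors, 1 coefficient per group, no covariate and the quasi-likelihood test. Genes passed filterByExpr (minimum count 10, minimum total 15), which kept 14843 of 55486, and p-values were adjusted over them by Benjamini-Hochberg. Calls were made where the adjusted p was below 0.05. The SE was taken as the absolute log2 fold change divided by the root of the F statistic. One entry of the table named no gene and held 0% of counts.

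The alternatives were the title number as a block, leaving out each library or each number, DESeq2 1.42.0 and its size factors, limma-voom (limma 3.58.1), other count filters, only the groups compared, and copies added. Same-numbered libraries were checked for shared deviations from their group means: the correlation was over 0.1 in every pair for lipid-laden against non-lipid-laden microglia (0.124 to 0.256) and for lipid-laden MDM against lipid-laden microglia (0.107 to 0.168), so the block is given there. For lipid-laden against non-lipid-laden MDM it was 0.0272 to 0.123, and for MDM against microglia without lipid load 0.0152 to 0.150. Between libraries of different numbers it was -0.0767 to 0.0559 and -0.134 to 0.0296 in these comparisons. In the 2 comparisons where the block is given it was -0.200 to 0.0941 and -0.108 to 0.0291. Replicate libraries differed by more than sampling noise in each pair (chi-square of at least 17.3 per degree of freedom). Levels per kilobase use the longest coding transcript of GENCODE M21, whose gene starts and ends match the table. Copies were transcripts matching at 95% or more over at least 200 bases in BLAST 2.17.0. The fit was tested on simulated data. The 10 genes, the other gene lists and the tests were chosen with earlier results of these data known. The text names all 10 genes, up to 4 genes of each other list by smallest p in a comparison, and the 5 genes most like the mean profile. Intervals cover counting error only.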

Additional observations from a re-analysis of the deposited data

Results flagged for a closer look

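In 3 cases a single library stood apart from the other 3 of their group by Dixon's criterion, which chance meets in about 1 of 20 groups. Hk2 was at 347 CPM in non-lipid-laden microglia 221, where the others were at 273 to 277 CPM. Pkm was at 2127 CPM in lipid-laden microglia 224, where the others were at 2962 to 3004 CPM. Ldha was at 1039.7 CPM in non-lipid-laden microglia 224, where the others were at 1458 to 1481 CPM.

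The lipid-laden effect differed between origins, by the test of the difference itself, for Pfkp (-3.10, MDM minus microglia) and Ldha (-0.84). The call for Pfkp was lost without 13 of the 15 libraries left out in turn, and that for Ldha without 10. Of the 8 microglia markers 6 were called higher in the same test, and their part was not tested.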

How the results depend on the processing

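The number of the 10 genes called was 0 in lipid-laden against non-lipid-laden microglia (comparison 1), 1 in lipid-laden against non-lipid-laden MDM (comparison 2), 4 in MDM against microglia without lipid load (comparison 3), 4 in lipid-laden MDM against lipid-laden microglia (comparison 4), 2 for the difference of effects (comparison 5) and 3 for their mean (comparison 6). In that order it was 5, 4, 7, 9, 5 and 6 with the replicate block. Counts over all genes under the block are not given here for comparisons 2 and 3, so the 4 and 7 cannot be set against all genes. Without the block, 1213 genes were called over all genes in comparison 2 and 3442 in comparison 3. Such counts are also not given for limma-voom in comparison 4 or for the block without a number. In comparisons 2 and 3 not every same-numbered pair passed the check's cutoff of 0.1, which does not show that the numbers share nothing there. The block added Pfkl, Aldoa and Pkm (higher) in comparison 2, and Aldoa (lower), Eno1 and Ldha (higher) in comparison 3. The block without 221, 224, 431 and 718 gave 3, 6, 1 and 0 in comparison 1, and 3, 1, 3 and 0 in comparison 2. Without 718 it gave 1 in comparison 4 and 0 in comparison 5, where it gave 4 without 224. DESeq2 called 5, 8 and 4 in comparisons 1, 4 and 5, limma-voom called 7 in comparison 4, and a fit of the groups compared alone called 0 there. A pair of settings was chosen after seeing the data: without both lipid-laden libraries of number 221, comparisons 2 to 6 gave 0, 3, 2, 0 and 1, and without any library of 224 they gave 0, 4, 2, 1 and 3. Leaving out 1 library gave 0 to 5, 0 to 1, 3 to 4, 0 to 6, 0 to 4 and 2 to 4 in comparisons 1 to 6. Over all genes it gave 0 to 64, 657 to 1383, 2755 to 3674, 168 to 431, 186 to 452 and 384 to 744 in the same order. Beyond what a setting removes by its construction, the cause was not tested.

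No called log2 fold change turned its sign, but values near 0 did. Hk2 in comparison 1 gave -0.000305 with limma-voom, -0.0900 to 0.116 without 1 library, -0.0146 with the block without 718 and -0.0704 without both lipid-laden 221 libraries. In comparison 2 it gave -0.158 to 0.126 and, with the block without 718, 0.0725. In comparison 5 it gave -0.169 to 0.115, 0.0871 with the block without 718 and 0.0703 without both lipid-laden 221 libraries, and in comparison 6 it gave -0.0737 to 0.0681, with 0.00421 and 0.0289 under the block without 221 and 718. Pfkl in comparison 5 gave -0.0142 with DESeq2 and with its size factors, -0.00468 at a minimum count of 50, -0.122 with the block without 224, -0.0445 without any 224 library, and -0.126 to 0.145 without 1 library. Pfkp in comparison 4 gave 0.0596 with limma-voom, 0.0589 with the block, 0.508, 0.144 and 0.0648 with the block without 221, 431 and 718, 0.222 without both lipid-laden 221 libraries and -0.476 to 0.354 without 1 library, and in comparison 6 it gave -0.665 to 0.00619. In comparison 2, Pgk1 gave -0.126 to 0.264 without 1 library and -0.125 without both lipid-laden 221 libraries, and Slc16a3 gave -1.07 to 0.0814, 0.0930 with the block without 221 and 0.0819 without both. Slc16a3 in comparison 6 gave -0.239 to 0.343 without 1 library and -0.199 with the block without 718. Slc2a1 in comparison 3 gave -0.126 to 0.0792 without 1 library, and 0.0522 and 0.00904 with the block without 221 and 718. In comparison 6 it gave -0.0142 to 0.203 without 1 library and -0.0956 without both lipid-laden 221 libraries.

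Over all genes, DESeq2 called 164 in comparison 1, where edgeR called 0, 1982 against 1213 in comparison 2, 798 against 413 in comparison 4, 960 against 375 in comparison 5 and 1444 against 749 in comparison 6. The block called 119, 657 and 1175 in comparisons 1, 5 and 6, no filter on low counts called 17 in comparison 1, and the fit of the groups compared alone called 176 in comparison 4. With 3 or 4 libraries a group, many calls turned on single libraries.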
